A study of Mus musculus with 8 samples.

Results

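Cd209a+ cells with abundant MHC class II transcripts were a small population in E0771 mammary tumors, with 133 of the 10605 cells kept for analysis (1.25%) and 11430 cells in all matrices. Their members were chosen by their own transcripts. A kept cell had 500 to 6000 detected genes and under 10% mitochondrial counts. A member also had at least 2 unique molecular identifiers (UMIs, each standing for 1 captured RNA molecule) of Cd209a, at least 10 of H2-Ab1, at most 1 of Cd3d, Cd3e and Cd3g together, and none of Ccr7. These 6 genes were left out of every comparison. The label proposed for the cells was Cd209a+ conventional dendritic cells, with Clec10a, Kmo and H2-DMb2 as further markers.

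The study asked how the immune cells of tumors that resist therapy differ from those of the parental tumor. E0771, a mouse mammary tumor line of C57BL/6 origin, was grown as the parental (naive) line or as 1 of 2 resistant lines, E0771-Res1 and E0771-Res2, each derived by the authors from an E0771 tumor that had grown back after therapy with paclitaxel and anti-PD-1. Each resistant group is therefore 1 cell line in several mice, and the labels name no treatment or engineered allele of the mice sampled here. CD45+ cells were sorted from the tumors on day 18, tagged by mouse with lipid-bound oligonucleotides, pooled and sequenced from the 3′ end. The groups held 2 parental mice (replicates 1 and 3), 3 E0771-Res1 mice and 3 E0771-Res2 mice, with 1 tumor each.

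Conventional dendritic cells take up antigen in tissue, cut it into peptides and load these on MHC class II molecules for display to CD4+ T cells. Their cDC2 branch is marked by SIRP-alpha and, in many tissues, by lectins such as CD209a and CLEC10A, and develops from FLT3-dependent precursors. Monocytes that enter inflamed tissue or tumors can take on MHC class II and CD209a as well, so that CD209a alone does not separate these lineages. Dendritic cells that migrate to lymph nodes switch on CCR7 and lose much of their uptake machinery.

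The mice gave 17 and 10 members in the parental mice, 34, 6 and 12 of the E0771-Res1 line, with 20, 23 and 11 in the E0771-Res2 tumors. Summed over members, these were 187406 and 103205 UMIs, 406929, 72572 and 118885 UMIs, and 245592, 237909 and 108216 UMIs. E0771-Res1 replicate 2, with 6 members, was below the minimum of 10 cells set for tests of gene levels between tumors and did not enter that fit. Members had a median of 9829 UMIs (3846 to 30954) and 2534 genes, against 7047.5 UMIs and 2143 genes in the other kept cells. No cell barcode was shared between mice. The mouse tag of a cell was the most frequent of the 9 tags in every member, but parental replicate 3 stood apart, since its own tag made up a median of 28.7% of the tag counts of its members and 41.8% in all its kept cells, where the other 7 mice had 61.7% to 74.8% and 61.6% to 72.4%.

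Within the gate, Cd209a ran from 2 to 44 UMIs per cell with a median of 7, and H2-Ab1 from 10 to 295 with a median of 74. The 21 members at the threshold of 2 Cd209a UMIs had a UMI of Clec10a in 47.6% of cells, and C1qa, a macrophage complement gene, stood at 507 CPM (counts of a gene divided by all UMIs of the summed cells and scaled to a common total). The 51 cells just outside it, with 1 Cd209a UMI and the other conditions met, had Clec10a in 21.6% and C1qa at 1389 CPM. The 90 members with 5 or more Cd209a UMIs had Clec10a in 60% and C1qa at 269 CPM. At the H2-Ab1 edge, 11 members had 10 to 19 UMIs and 15 cells outside the gate had fewer than 10. Flt3, the receptor that drives dendritic cell development, was seen in 27.3% of the former and 46.7% of the latter. A further 26 cells were outside only because of a Ccr7 UMI, and 8 because of 2 or more Cd3 UMIs.

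The proposed markers were present in the members, well above what free RNA gives in T cells, which should lack them. Levels below are in CPM over the summed cells of a kind in a mouse, given as mean ± SD over 8 mice. They compare the same gene between kinds of cell, which were themselves chosen on transcripts, so no test is given. The reference cells were 208 Ccr7+ dendritic cells (at least 2 Ccr7 and 10 H2-Ab1 UMIs), 1344 C1q+ macrophages (at least 10 H2-Ab1 and 10 C1q UMIs, without Cd209a or Ccr7), and 649 T cells (at least 3 Cd3 UMIs and fewer than 10 of H2-Ab1, with a median of 8290 UMIs per cell).

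Clec10a, a galactose-binding lectin of dendritic cells and macrophages, stood at 224 and 349 CPM in the members of the parental tumors, 155, 496 and 622 in E0771-Res1, with 155, 282 and 157 in E0771-Res2. The groups overlapped, and E0771-Res1 held both the highest mouse and a mouse level with the lowest of E0771-Res2. The mean was 305 ± 175 against 47.8 ± 34.2 in Ccr7+ cells, 16.5 ± 6.01 in C1q+ macrophages and 8.19 ± 5.04 in T cells, and members were higher in all 8 mice in each case. A Clec10a UMI was found in 60.2% of members and 5.24% of T cells, and in 33.8% and 2.22% once each cell was thinned to 2500 UMIs.

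Kmo, which hydroxylates kynurenine in the breakdown of tryptophan, was at 117 and 126 CPM in the parental mice, 125, 41.3 and 58.9 in E0771-Res1, with 97.7, 88.3 and 111 in E0771-Res2. The lowest values were those of 2 E0771-Res1 mice, and the third lay with the parental mice. Over all mice the mean was 95.7 ± 31.3, against 44.2 ± 19 in Ccr7+ cells, 7.35 ± 2.86 in C1q+ macrophages and 2.25 ± 3.05 in T cells. H2-DMb2, a chain of the chaperone that loads peptide on MHC class II, was at 80.0 and 48.4 CPM in the parental members, 73.7, 82.7 and 101 in E0771-Res1, with 69.2, 143 and 111 in E0771-Res2. Its level was higher in Ccr7+ cells (177 ± 69.2) than in members (88.6 ± 29.1), with 1 mouse in the other direction, and low in T cells (1.26 ± 1.25). So H2-DMb2 set the members apart from T cells but was no marker of them against Ccr7+ dendritic cells.

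These 3 markers did not sit in the same cells throughout. Of the 133 members, 19 had a UMI of all 3, 53 of any 2, 49 of 1 and 12 of none, at a depth where a UMI of a low gene is easily missed. Clec10a was seen together with Mgl2, its close relative in the same lectin family, in 30 members, alone in 50, and Mgl2 alone in 10. The mean level of Mgl2 was 189 ± 145 CPM in members, against 83.6 ± 125 in Ccr7+ cells and 42.7 ± 32.8 in C1q+ macrophages, and ran from 9.69 in parental replicate 3 to 410.4 in E0771-Res1 replicate 1. The last 300 bases of the transcripts of Clec10a and Mgl2, near which the 3′ reads start, shared no run longer than 14 bases in the GENCODE annotation, those of H2-DMb1 and H2-DMb2 none longer than 23, and those of Cd209a and its relatives Cd209b to Cd209g none longer than 14.

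The 12 genes listed for conventional dendritic cell identity summed to 1357 ± 140.3 CPM in members, about level with C1q+ macrophages (1321 ± 92.8) and the other kept cells (1297 ± 53.0), each exceeded in 5 of 8 mice, and below Ccr7+ cells (1606 ± 159) in all 8. Spi1, a factor shared with macrophages, made up most of the sum (724), and the more selective genes were low but detected. Flt3 was at 32.0 and 19.4 CPM in parental members, 29.5, 13.8 and 8.41 in E0771-Res1, with 16.3, 21.0 and 46.2 in E0771-Res2, with overlapping groups. Its mean of 23.3 ± 12.1 was above C1q+ macrophages (1.47 ± 1.52) and T cells (2.25 ± 1.72) in all 8 mice and below Ccr7+ cells (64.6 ± 34.3) in all but 1. Zbtb46, a transcription factor of conventional dendritic cells, averaged 14.4 ± 10.2 against 42.4 ± 23.6 in Ccr7+ cells, 0.836 ± 0.847 in C1q+ macrophages and 3.69 ± 2.52 in T cells, and was at 0 in the members of E0771-Res1 replicates 2 and 3. Dpp4 (CD26), a surface peptidase of conventional dendritic cells, averaged 59.9 ± 20.6 against 7.62 ± 6.37 in C1q+ macrophages and 19.7 ± 3.36 in T cells, which also carry it. The 18 listed cDC2 markers summed to 2599 ± 304 CPM in members, above C1q+ macrophages (1331 ± 103) in all 8 mice. This sum was below that of Ccr7+ cells (3194 ± 298) in all 8 mice.

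The 24 listed transcription factors of dendritic cell development summed to 3717 ± 545 CPM in members, below Ccr7+ cells (5360.2 ± 417), C1q+ macrophages (5114 ± 275) and the other kept cells (5574 ± 242) in all 8 mice, and single factors differed. Bcl11a, needed early in dendritic cell and lymphoid development, was at 79.2 ± 30.1 CPM in members and at 10.1 ± 7.23 in Ccr7+ cells, 2.22 ± 1.89 in C1q+ macrophages and 0.798 ± 1.33 in T cells, and was higher in members in all 8 mice in each case. Cbfa2t3, a corepressor of blood cell development, was at 129 ± 26.2 in members, close to Ccr7+ cells (152 ± 66.2) and above C1q+ macrophages (23.6 ± 5.83) and T cells (10.4 ± 9.17) in every mouse. Irf4, a factor of the cDC2 branch, was at 9.34 ± 7.78 in members and at 18.9 ± 9.30 in T cells, so its level was no higher than that of free RNA and of the gene's own expression in T cells. Of all members, 85 (63.9%) had a UMI of Flt3, Zbtb46, Dpp4 or Irf4, against 77.4% of Ccr7+ cells, 8.04% of C1q+ macrophages and 27.6% of T cells. After thinning to 2500 UMIs, which left out 2 Ccr7+ cells, 10 C1q+ macrophages and 19 T cells, the shares were 24.1%, 42.2%, 1.80% and 9.52%.

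The 12 monocyte markers summed to 6382 ± 641.5 CPM in members, against 3425.5 ± 1170.2 in Ccr7+ cells, 4174 ± 977 in C1q+ macrophages and 2961 ± 518 in T cells, and the members were higher in all 8 mice each time. All other kept cells summed to 7078 ± 1525, and the members were above them in 2 of 8 mice. Plac8, a cysteine-rich protein of monocytes and granulocytes, averaged 2928 ± 464 CPM in members, against 1199.5 ± 537 in Ccr7+ cells and 937 ± 280 in C1q+ macrophages. Ifitm6, an interferon-induced membrane protein of monocytes, averaged 345 ± 87.3, against 51.0 ± 28.5 and 37.6 ± 16.7, and was higher in members in all 8 mice. Ccr2, the receptor that draws monocytes into tissue, averaged 376 ± 104 against 115 ± 93.2 and 258 ± 54.2, and Fcgr1 (CD64), an IgG receptor used to tell monocyte-derived cells from conventional dendritic cells, 385 ± 130 against 245 ± 102 and 660.5 ± 108. T cells gave 225 ± 72.2 for Fcgr1 and 155 ± 69.0 for Ccr2, so that part of these levels is within reach of free RNA. Ly6c2, a marker of inflammatory monocytes, was seen in 84.2% of members but was no higher in them (830.4 ± 317) than in T cells (841 ± 241). Vcan (15.8 ± 19.3) and Chil3 (42.8 ± 48.7) were below T cells (24.9 ± 10.7 and 163 ± 101). Whether T cells held these transcripts as free RNA or by their own expression was not tested, so a T cell level does not show that members lack them.

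UMIs of both groups of genes were found in the same cells. Fcgr1 was seen in 23 of the 29 members with a Flt3 UMI and in 86 of those without one, where 18 members had neither. This is 82.0% of all members (52.6% thinned), against 47.9% of T cells (29.4% thinned), which give the background. Split by a UMI of Flt3, Zbtb46, Dpp4 or Irf4, the 85 members with and the 48 without had nearly the same median depth (9829 and 9843 UMIs). Their summed levels of Plac8 were 2875 and 2952 CPM, of Ifitm6 327 and 318, and of Fcgr1 337 and 379. Clec10a was at 199.8 in those with a dendritic cell gene and at 351 in those without, and Ifitm1 at 1148 and 659. No test was made of a split based on the cells' own transcripts. The data therefore hold the cDC2 markers and the transcripts of monocytes in the same gate, and the cells are called Cd209a+ cells below.

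**Figure D1:**
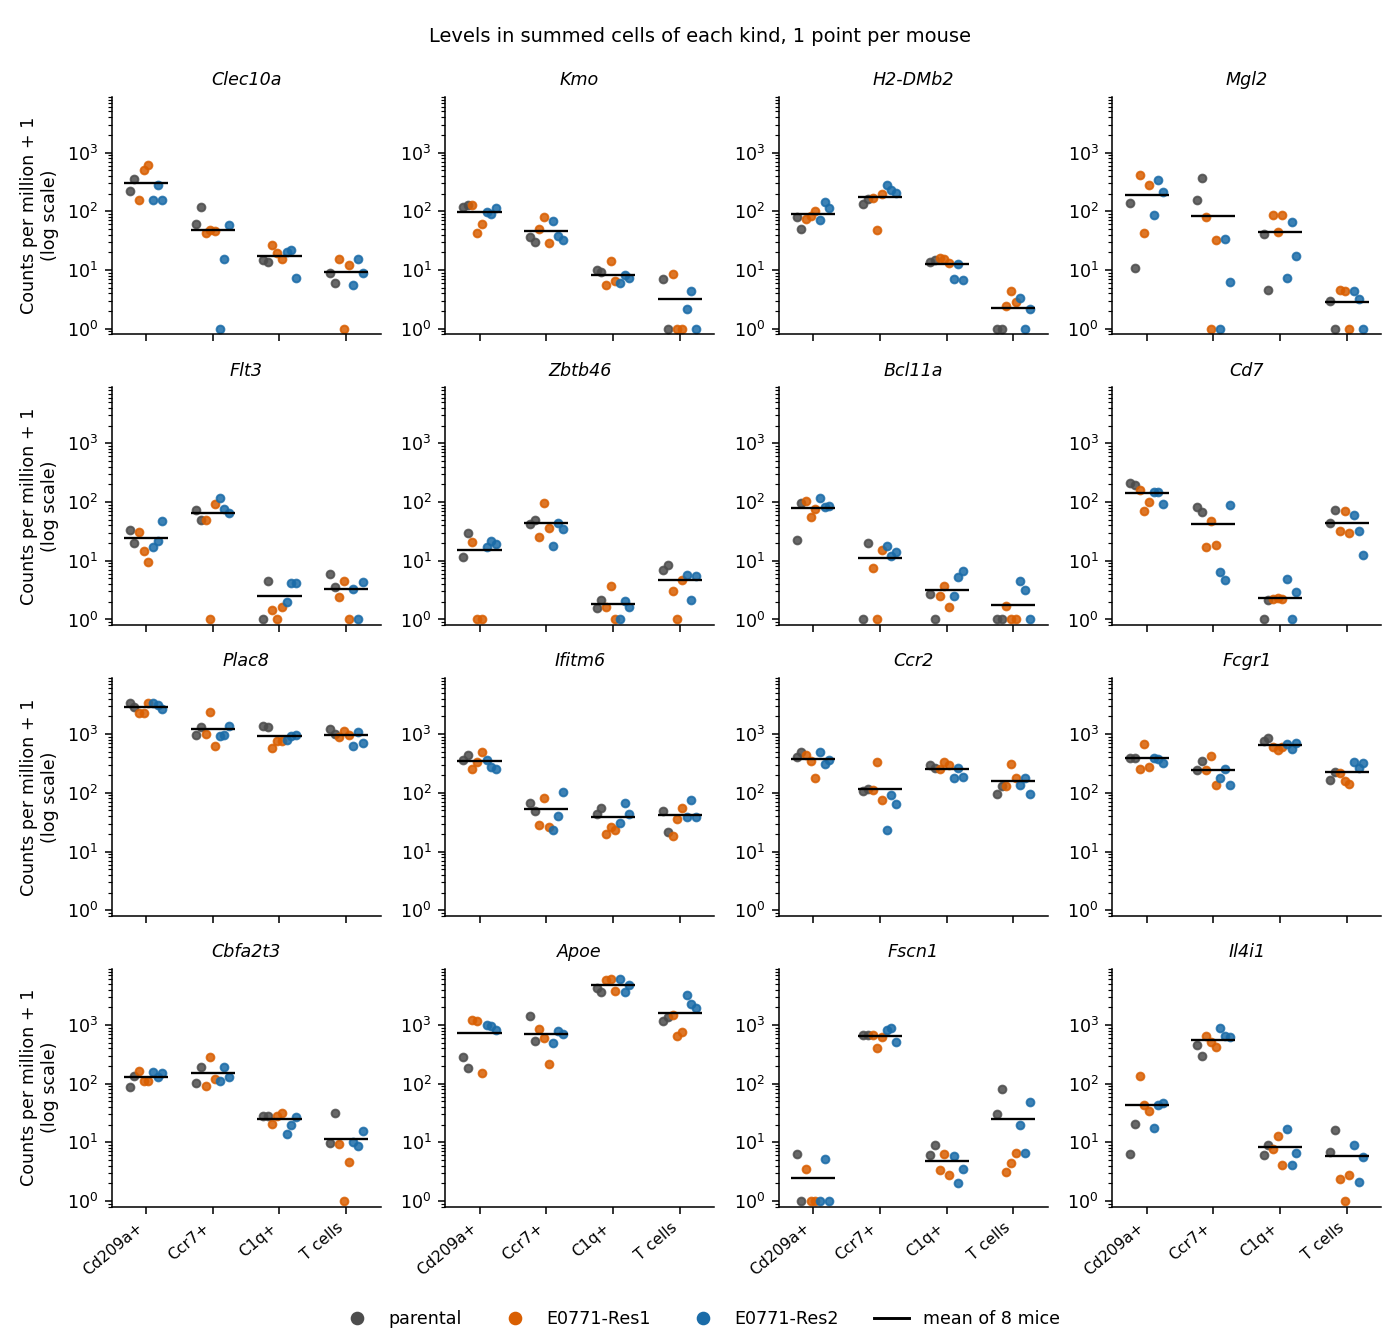
Levels of 16 genes in summed Cd209a+ cells, Ccr7+ dendritic cells, C1q+ macrophages and T cells, in CPM + 1 on a log axis, with 1 point per mouse colored by tumor and a line at the mean of 8 mice. Clec10a, Bcl11a and Ifitm6 were highest in Cd209a+ cells, Flt3, Zbtb46, H2-DMb2 and Fscn1 in Ccr7+ cells, and Apoe and Fcgr1 in C1q+ macrophages.

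Markers of macrophages and mature dendritic cells were low in members, and those of cDC1 were mixed. Of 14 macrophage markers, summed levels in members were 3394 and 3333 CPM in the parental mice, 3632, 3941 and 1480.4 in E0771-Res1, with 3399.9, 2968 and 2467 in E0771-Res2, with Apoe the most abundant (720.2 ± 446). In T cells the same list averaged 5297, so the sum in members lay below the T cell background in 7 of 8 mice. C1q transcripts had a median of 2 UMIs per member, 3 per T cell and 84 per C1q+ macrophage, but 15 members carried 10 or more. The 16 markers of mature dendritic cells summed to 696 ± 122 CPM in members and 5677 in Ccr7+ cells. Fscn1, which bundles actin in mature dendritic cells, was at 1.5 ± 2.21 against 657 ± 157, and Cacnb3 was at 0 against 223 ± 74.3. The 12 cDC1 markers summed to 849 ± 90.5 CPM in members, with the interferon-inducible Ifi205 the most abundant (356), against 470 ± 36.9 in T cells, 819.6 ± 114 in C1q+ macrophages and 802 ± 85.9 in the other kept cells. Members were higher in 8, 6 and 5 of 8 mice. Of the defining cDC1 genes, the chemokine receptor Xcr1 was at 0 in all 133 members and the dead-cell receptor Clec9a at 8.94 ± 9.88.

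A few members carried the transcripts of another cell type. In E0771-Res1 replicate 2, 1 cell of 7385 UMIs held 17 of Siglech, 10 of Ccr9, 12 of Ly6d, 5 of Klk1 and 10 of Cox6a2, all genes of plasmacytoid dendritic cells, beside 5 of Cd209a, 10 of H2-Ab1 and 7 of Clec10a. It gave all Klk1 UMIs and 12 of the 13 Ly6d UMIs of the 133 members. In E0771-Res2 replicate 2, 1 cell of 19146 UMIs held 59 of the 62 UMIs of Sparc and all UMIs of Col4a1 (24) and Col1a1 (11), which are stromal matrix genes. The keratins Krt18 and Krt19 of the tumor cells were at 0. Whether such cells were doublets was not tested, since the caller used on the raw matrices, Scrublet, marked only 53 of 11430 cells (0.464%), too few to be taken as working. By its score alone, the cell with plasmacytoid genes was in the top 5% and the cell with stromal genes was not.

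Genes of antigen presentation through MHC class II had the highest sum of the gene lists examined in Cd209a+ cells, which did not include ribosomal or mitochondrial genes. The 17 listed genes of this pathway other than H2-Ab1 summed to 38024 ± 5438.5 CPM, against 42582 in Ccr7+ cells, 26132 in C1q+ macrophages and 3372 in T cells. Cd74, the invariant chain that escorts MHC class II, averaged 17767 ± 2936, H2-Aa 7611 ± 1312 and H2-Eb1 6483 ± 1507. The gate asks for H2-Ab1, so that high levels of these coregulated genes are partly fixed by the choice of cells. The chains of the peptide-loading chaperone differed in order between the gates. H2-DMa was at 924 ± 76.4 in Cd209a+ cells and 409 ± 80.9 in Ccr7+ cells, and H2-DMb1 at 1261 ± 181 and 433 ± 171, higher in Cd209a+ cells in all 8 mice, whereas H2-DMb2 was higher in Ccr7+ cells. H2-Oa (48.7 ± 52.2) and H2-Ob (33.8 ± 13.4), the inhibitor of that chaperone, were above C1q+ macrophages (4.40 ± 2.87 and 5.01 ± 1.92) in all 8 mice. Ciita, the master regulator of the class II genes, was at 90.8 ± 45.0 against 42.9 ± 11.4 in C1q+ macrophages.

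The 18 costimulatory and checkpoint ligands summed to 1480 ± 221 CPM in Cd209a+ cells, against 2472.5 ± 220.0 in Ccr7+ cells, 1623.5 ± 136 in C1q+ macrophages and 1609 ± 79.4 in all other kept cells. The sum was below that of Ccr7+ cells in all 8 mice, and above that of C1q+ macrophages and of the other kept cells in 2 of 8 mice each. Cd86, a ligand of CD28, averaged 218 ± 46.6 CPM in Cd209a+ cells, 278 ± 52.8 in Ccr7+ cells and 136 ± 18.2 in C1q+ macrophages. Cd40 averaged 139 ± 29.6, 255 ± 76.6 and 99.2 ± 31, and Cd83, which stabilizes MHC class II at the surface, 303 ± 110, 685 ± 79.1 and 180.4 ± 24.3. Each was lower in Cd209a+ than in Ccr7+ cells in at least 5 of 8 mice. Il12b, which encodes a chain of the T cell cytokine IL-12, was at 0 in Cd209a+ cells, with 96.5 ± 106 in Ccr7+ cells. Among chemokines, Cxcl10, which attracts CXCR3+ T cells, was the most abundant of 18 at 1752 ± 683, against 722 ± 383 in Ccr7+ cells and 1322 ± 233 in all other kept cells. Ccl5 was at 331 ± 435, against 3718 ± 1254 in Ccr7+ cells.

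The tryptophan pathway was represented by some of its enzymes. The 9 listed genes summed to 211 ± 70.8 CPM in Cd209a+ cells, 670.4 in Ccr7+ cells and 48.4 in C1q+ macrophages. Besides Kmo, Kynu, the kynureninase that acts downstream of it, was at 23 ± 11.7 and C1q+ macrophages were at 1.12 ± 1.09. The enzymes that start the pathway, Ido1, Ido2 and Tdo2, were at 0 in all members. Il4i1, an amino acid oxidase of mature dendritic cells, averaged 42.1 ± 39.3 in Cd209a+ cells and 557 ± 181 in Ccr7+ cells.

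**Figure D2:**
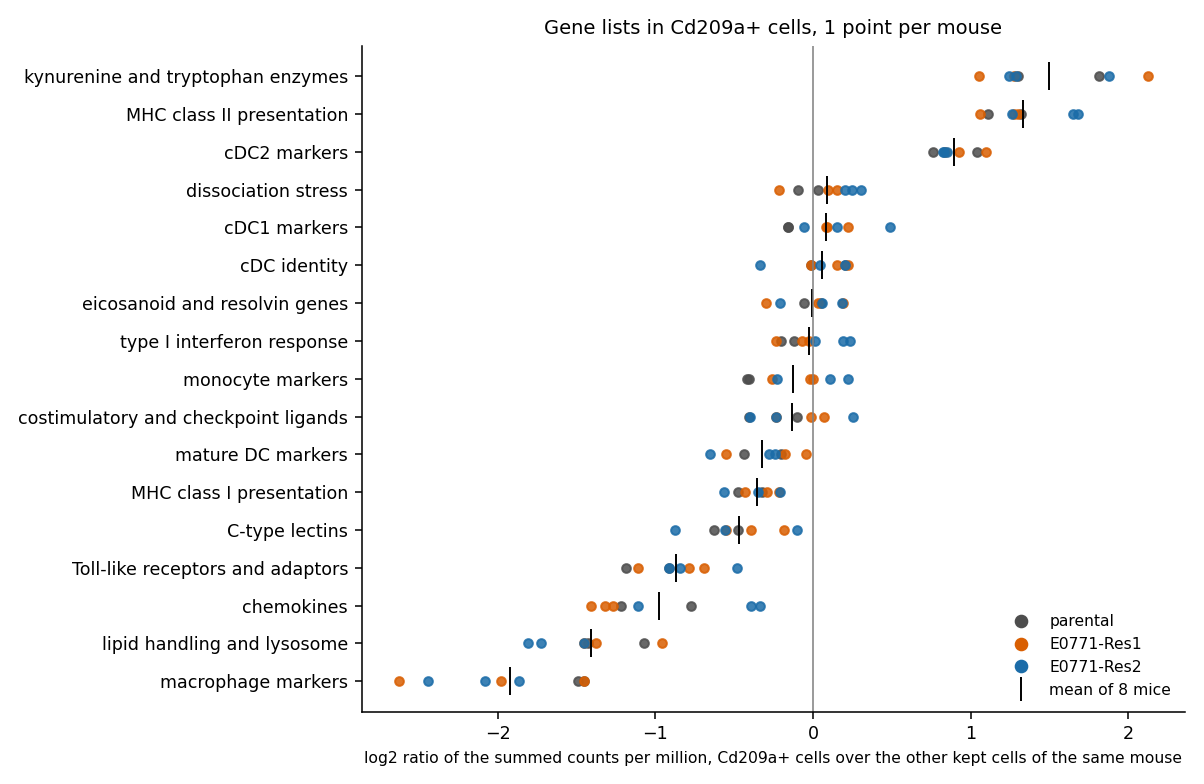
Summed CPM of 17 gene lists in Cd209a+ cells relative to the other kept cells of the same mouse, as log2 ratios, with 1 point per mouse and a bar at the mean of 8 mice. Genes of MHC class II presentation (mean 1.33), tryptophan enzymes (1.5) and cDC2 markers (0.90) were above 0 in all 8 mice, and macrophage markers (-1.92) and genes of lipid handling and lysosome (-1.41) were below 0 in all 8. The other kept cells are of many kinds, and Ccr7+ cells alone had more of the cDC2 list than Cd209a+ cells in all 8 mice.

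Among all genes outside the gate with a mean of at least 100 CPM in Cd209a+ cells, the 30 with the highest mean log2 ratio to the other kept cells (each level + 10) are described here without a test, since they were ranked on these values. The list was led by Ifitm1, an interferon-induced membrane protein, with a log2 ratio of 3.58 ± 0.44 and 1008 against 73.4 CPM. Its level was 29.2 ± 14.8 in C1q+ macrophages and 76.2 ± 70.2 in T cells. Next were Clec10a (3.31 ± 0.71), Cd209d, a neighbor of Cd209a in the same lectin family (2.97 ± 1.30, in 7 of 8 mice), and Cd7, a surface protein of lymphoid and dendritic precursors (2.64 ± 0.51).

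Other genes among the 30 are named here with their known roles. Klrb1b (2.13 ± 0.57), Klrd1 (1.99 ± 0.31) and Klrk1 (1.46 ± 0.35) encode lectin receptors best known from NK cells. Klrd1 averaged 399 ± 90.4 CPM in Cd209a+ cells and 383 ± 121 in T cells, and was found in 73.7% of members, where C1q+ macrophages were at 18.8. Fdps (2.08 ± 0.49), Idi1 (1.56 ± 0.57), Pmvk (1.55 ± 0.50) and Cyp51 (1.54 ± 0.59) are enzymes of cholesterol and isoprenoid synthesis, and Fdps stood at 383 ± 124 CPM against 78.9 in the other cells. Ccnd1, the D-type cyclin of the G1 phase, was at 647 ± 132 against 145 and was seen in 91.0% of members, and the kinase Vrk1 had a ratio of 2.08 ± 0.42. These genes were picked from the 30 after the ranking, and no list of such genes was tested. The ranking was made against all other kept cells together, so it does not set the 30 genes apart from Ccr7+ dendritic cells. Of the 30, Syngr2 was higher in Ccr7+ cells and H2-DMb1 in Cd209a+ cells, for example.

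The 30 lowest included C1qa (-2.82 ± 1.18) and the monocyte attractant Ccl2 (-2.68 ± 0.99), beside C1qb, Ccl5, C1qc and Ms4a7. Lysosomal proteases were also among them, with Ctsd at -2.11 ± 0.55, Ctsb at -1.70 ± 0.34 and Lgmn at -1.65 ± 0.25. Lyz2 was in the same set (-1.72 ± 0.78), with 2646 against 8202 CPM in the other kept cells.

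The share of Cd209a+ cells was lower on average in resistant than in parental tumors, by an amount that differed with the depth and gate used and did not pass the test. They were 1.52% and 1.65% of kept cells in the parental mice, 1.68%, 0.993% and 1.28% in E0771-Res1, with 1.09%, 1.52% and 0.561% in E0771-Res2. E0771-Res2 replicate 3 was lowest, with an exact 95% binomial interval of 0.280% to 1.00% that covers counting error only, and the groups overlapped. The mean was 1.19% in the 6 resistant and 1.58% in the 2 parental mice, a difference of -0.397 percentage points (two-sided exact permutation of 28 assignments, p = 0.286, with 0.571 after adjustment for 4 measures, where the smallest possible p is 0.0357). Depth differed between the mice, with a median of 8112 and 8058 UMIs per kept cell in the parental mice against 7001, 5677.5 and 5589 in E0771-Res2. E0771-Res1, at 8138.5, 8160 and 7631, was close to the parental mice. With every cell thinned to 2500 UMIs, and the gate lowered to 1 UMI of Cd209a and 4 of H2-Ab1, the shares were 2.04% and 2.40% in the parental mice, 1.47%, 1.84% and 1.91% in E0771-Res1, with 1.04%, 1.29% and 0.671% in E0771-Res2. At that depth and gate all 6 resistant mice lay below both parental mice, and the difference was -0.853 percentage points (exact permutation p = 0.0714, adjusted p = 0.286). Per line the exact permutation p there was 0.1, the smallest that 2 against 3 mice allow. With Cd209a of at least 1 UMI at full depth, all 6 resistant mice also lay below both parental mice. That difference was -0.705 percentage points (exact permutation p = 0.0714). The thinned setting changed depth and gate together, so the part of each was not tested. All CD45+ cells are in the denominator, so fewer Cd209a+ cells and more cells of another type cannot be told apart.

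Relative to H2-Ab1-high cells without T cell genes, of which they are a subset, Cd209a+ cells made up 4.22% and 5.03% in the parental tumors. The values were 4.04%, 3.95% and 3.33% in E0771-Res1, with 5.15%, 8.13% and 2.89% in E0771-Res2. All 3 E0771-Res1 mice lay below both parental mice (exact permutation p = 0.1, the smallest that 2 against 3 mice allow), and E0771-Res2 spanned all other mice. Resistant and parental means were 4.58% and 4.62% (exact permutation p = 0.964, adjusted p = 0.964).

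**Figure D3:**
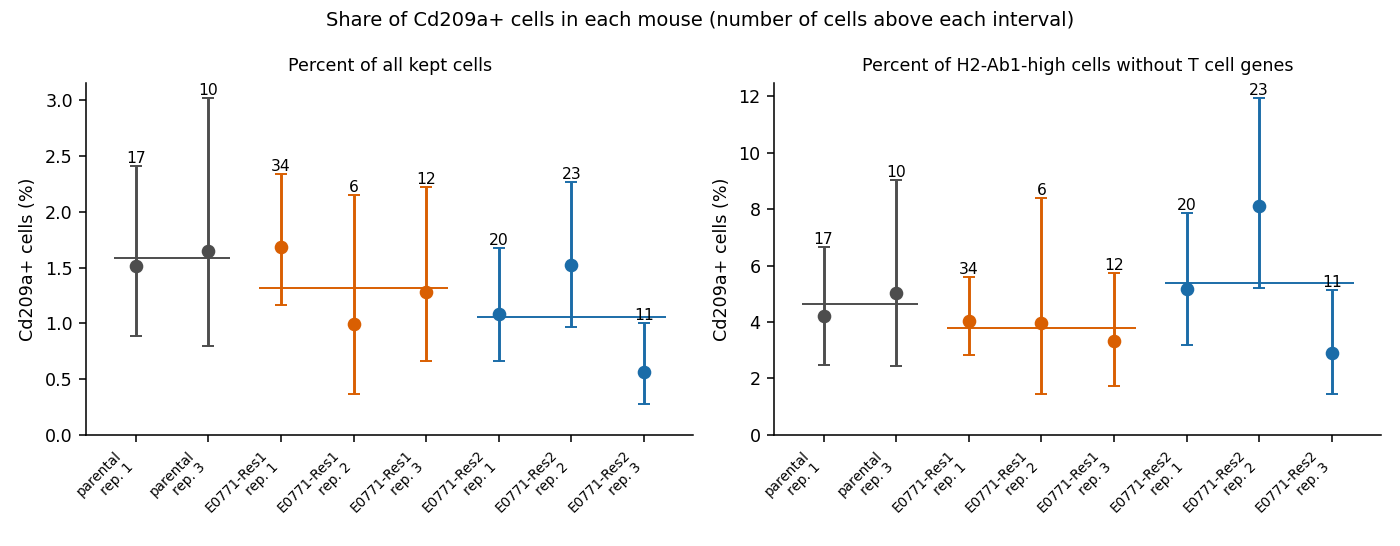
Cd209a+ cells in percent of all kept cells (left) and of H2-Ab1-high cells without T cell genes (right) in each mouse, with exact 95% binomial intervals, the number of Cd209a+ cells above each interval, and a line at the mean of each group. On the left E0771-Res2 replicate 3 was lowest at 0.561%, with an interval below that of E0771-Res1 replicate 1 (1.17% to 2.34%), and E0771-Res2 replicate 2 was highest on the right at 8.13%.

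For each 100 Cd209a+ cells there were 153 and 110 Ccr7+ dendritic cells in the parental mice, 153, 117 and 208 in E0771-Res1, with 100, 135 and 327 in E0771-Res2. The highest ratio was in E0771-Res2 replicate 3, the mouse with the lowest share of Cd209a+ cells, and the groups overlapped (means 173 and 131, exact permutation p = 0.607, adjusted p = 0.810). A UMI of the proliferation genes Mki67 or Top2a was found in 19 of the 133 cells. By mouse these were 11.8% and 0% in parental, 14.7%, 16.7% and 8.33% in E0771-Res1, with 30%, 4.35% and 27.3% in E0771-Res2. The means of 16.9% in resistant and 5.88% in parental tumors did not differ beyond the spread (exact permutation p = 0.179, adjusted p = 0.571). At 2500 UMIs with the lowered gate, which holds a different set of cells, the order turned (-4.96 percentage points, exact permutation p = 0.5). The 0% of parental replicate 3 rests on 10 cells and allows a share of up to 30.8% (exact binomial limit).

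Gene levels in Cd209a+ cells were then compared between tumors in 1 edgeR quasi-likelihood fit over the summed counts of 7 mice, with 2842 genes. Only 1 gene passed an adjusted p of 0.05, Mmp12 in E0771-Res1 against parental tumors, which is 0.0352% of the genes tested, and 0% passed in each of the other 3 comparisons (resistant against parental, E0771-Res2 against parental, and E0771-Res2 against E0771-Res1). At an unadjusted p under 0.05 there were 140, 114, 153 and 132 genes in resistant against parental, E0771-Res1 against parental, E0771-Res2 against parental and E0771-Res2 against E0771-Res1, or 4.93%, 4.01%, 5.38% and 4.64%, where 142.1 would arise with no difference. DESeq2, over 11575 genes, called 0 in all 4, with 56, 40, 61 and 40 at an unadjusted p under 0.05, where 578.75 would arise with no difference. In data simulated for resistant against parental tumors over these 2842 genes, the fit called 86% of 200 genes with a log2 change of 2 and 17.5% of 200 with a log2 change of 1. Small changes were thus mostly out of reach. The simulated spread followed only the level of a gene, without a spread of its own for each gene or UMIs massed in 1 cell. The simulation cannot say how often a log2 change of 2 would be called for real genes of that kind. Genes whose mice did not overlap were common, at 5.56% of all genes higher and 5.77% lower in resistant against parental tumors, 16.6% and 16.7% in E0771-Res1, 11.1% and 11.6% in E0771-Res2, and 9.57% and 9.64% in E0771-Res2 against E0771-Res1, so that a lack of overlap below is a description of the mice. A sum over cells cannot tell a change in a few of them from a change in all.

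Mmp12, a matrix metalloproteinase of macrophages that cleaves elastin, stood at 5.34 and 0 CPM in the parental mice, 111, 13.8 and 143 in E0771-Res1, with 40.7, 16.8 and 18.5 in E0771-Res2. All resistant mice lay above both parental mice, by 1 UMI in E0771-Res1 replicate 2 and 2 UMIs in E0771-Res2 replicate 3. Without the richest cell of each mouse Mmp12 was at 0 in both parental mice and at 43.8, 0 and 46.9 in E0771-Res1. In E0771-Res2 it was then at 9.14, 13.1 and 0, so that the groups overlapped. Between E0771-Res1, without replicate 2, and parental tumors the log2 fold change was 4.96 ± 0.85 (SE), with an adjusted p of 0.0369 in edgeR's quasi-likelihood test. The parental value rests on 1 UMI against 62, a ratio of 34.3 with an exact 95% counting interval of 5.93 to 1375. Mmp12 met the low-count filter through resistant mice, so the test could show little but a rise. Of the 80 Mmp12 UMIs, 28 came from 1 cell of E0771-Res1 replicate 1 and 12 from 1 cell of replicate 3. Without the former cell, a choice made after seeing the data, Mmp12 fell below the filter on low counts and no gene was called in any comparison. Mmp12 was also higher in the resistant tumors outside the gate, at 59.0 and 44.0 CPM in the other kept cells of parental mice, 246, 120.2 and 153 in E0771-Res1, with 206, 187 and 185 in E0771-Res2. The part of that RNA in the result was not tested.

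No other gene passed the adjusted threshold, and the genes with the smallest p in each comparison are given as values. Ifitm1, the gene that led the comparison with other cells, was at 1542 and 1521 CPM in the parental mice, 1027, 1350.4 and 749 in E0771-Res1, with 664, 807 and 407 in E0771-Res2. Both parental mice were above all resistant mice, and E0771-Res2 mice were mostly the lowest. The log2 fold change was -1.22 ± 0.23 (SE) in E0771-Res2 against parental tumors (edgeR adjusted p = 0.0704) and -0.98 ± 0.21 in all resistant against parental tumors (adjusted p = 0.232). In the other kept cells, where Ifitm1 was low, it was at 88.3 and 131 CPM in parental mice, 67.8, 93.8 and 74.9 in E0771-Res1, with 30.7, 48.9 and 51.8 in E0771-Res2.

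Fam110a, a spindle-associated protein, was at 80.0 and 77.5 CPM in parental, 46.7, 68.9 and 50.5 in E0771-Res1, with 4.07, 4.20 and 0 in E0771-Res2. The 3 E0771-Res2 mice lay apart from all other mice, with 2 UMIs in 54 cells against 23 in the 27 parental cells, a ratio of 0.0427 with an exact 95% counting interval of 0.00488 to 0.173 that treats UMIs of 1 cell as independent. In the parental mice 8 of 15 and 5 of 8 UMIs came from 1 cell each. Without the richest cell of each mouse Fam110a was at 39.1 and 31.4 in parental mice, 36.0, 59.5 and 36.6 in E0771-Res1, with 0 in all 3 E0771-Res2 mice. The edgeR adjusted p was 0.0704 against parental tumors and 0.270 against E0771-Res1. Fam110a met the low-count filter through mice other than those of E0771-Res2, so the test could show little but a fall in that line. In the other kept cells the gene was at 13.6 to 19.4 in E0771-Res2 and 19.7 to 27.8 in the remaining mice. Tubb5, a tubulin that is raised in dividing cells, was at 144 and 116 in parental, 371, 110.2 and 185 in E0771-Res1, with 439.8, 286 and 554 in E0771-Res2, with a log2 fold change of 1.70 ± 0.35 in E0771-Res2 (adjusted p = 0.0915) beside the Mki67 and Top2a shares given above. For Tubb5, 65 of 108 UMIs in E0771-Res2 replicate 1 and 35 of 60 in replicate 3 came from 1 cell each. Without the richest cell of each mouse the levels were 124 and 72.9 in parental mice, 287, 79.3 and 165 in E0771-Res1, with 197, 263 and 271 in E0771-Res2. Cdkn1a (p21), an inhibitor of the cell cycle, was at 784 and 862 in parental and at 378 to 551 in resistant mice (-0.79 ± 0.19, adjusted p = 0.290).

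Macrophage genes were among those with small p, some with lower and some with higher values in the resistant tumors. C1qa was at 624 and 610.4 CPM in the parental mice, 327, 96.5 and 67.3 in E0771-Res1, with 257, 109 and 148 in E0771-Res2. Both parental mice were above all resistant mice, with a log2 fold change of -1.62 ± 0.33 in resistant against parental tumors (edgeR adjusted p = 0.232). In the parental mice 84 of 117 and 58 of 63 C1qa UMIs came from 1 cell each. Without the richest cell of each mouse the levels were 196 and 60.8 in the parental mice, 178, 99.1 and 45 in E0771-Res1, with 69.9, 88.4 and 119 in E0771-Res2, so that the groups overlapped. The level of C1qa in T cells, a measure of free RNA, was 436 and 274 in parental mice, 911, 507 and 331 in E0771-Res1, with 1135, 584 and 958 in E0771-Res2. The part of free RNA in the C1qa levels was not tested.

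Apoe, a lipid carrier of macrophages, was at 277 and 184 CPM in parental, 1199, 1185 and 151 in E0771-Res1, with 1006, 946 and 813 in E0771-Res2. E0771-Res1 replicate 3 lay below both parental mice and the other resistant mice above them (E0771-Res2 against parental 2.01 ± 0.48, edgeR adjusted p = 0.228). In the other kept cells Apoe was 2109 and 2181 in parental mice, 3780.2, 2908 and 2176 in E0771-Res1, with 3621, 2912 and 3380.3 in E0771-Res2, and the part of that RNA was not tested. Of its 1223 UMIs in Cd209a+ cells, 251 came from 1 cell of E0771-Res1 replicate 1, and without the richest cell of each mouse Apoe was 224 and 151 in parental mice, 622, 159 and 129.9 in E0771-Res1, with 224, 556 and 349 in E0771-Res2, so that the groups overlapped. The former cell also gave 70 of the 128 UMIs of the monocyte attractant Ccl7. Ccl7 was at 5.34 and 0 in parental, 219, 68.9 and 25.2 in E0771-Res1, with 44.8, 75.7 and 9.24 in E0771-Res2 (E0771-Res1 against parental adjusted p = 0.214), and rested on 1 parental UMI. With the replicate number as a block, Ccl7 was the 1 gene called in E0771-Res1 (edgeR adjusted p = 0.0281), and Mmp12 was not (adjusted p = 0.125).

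**Figure D4:**
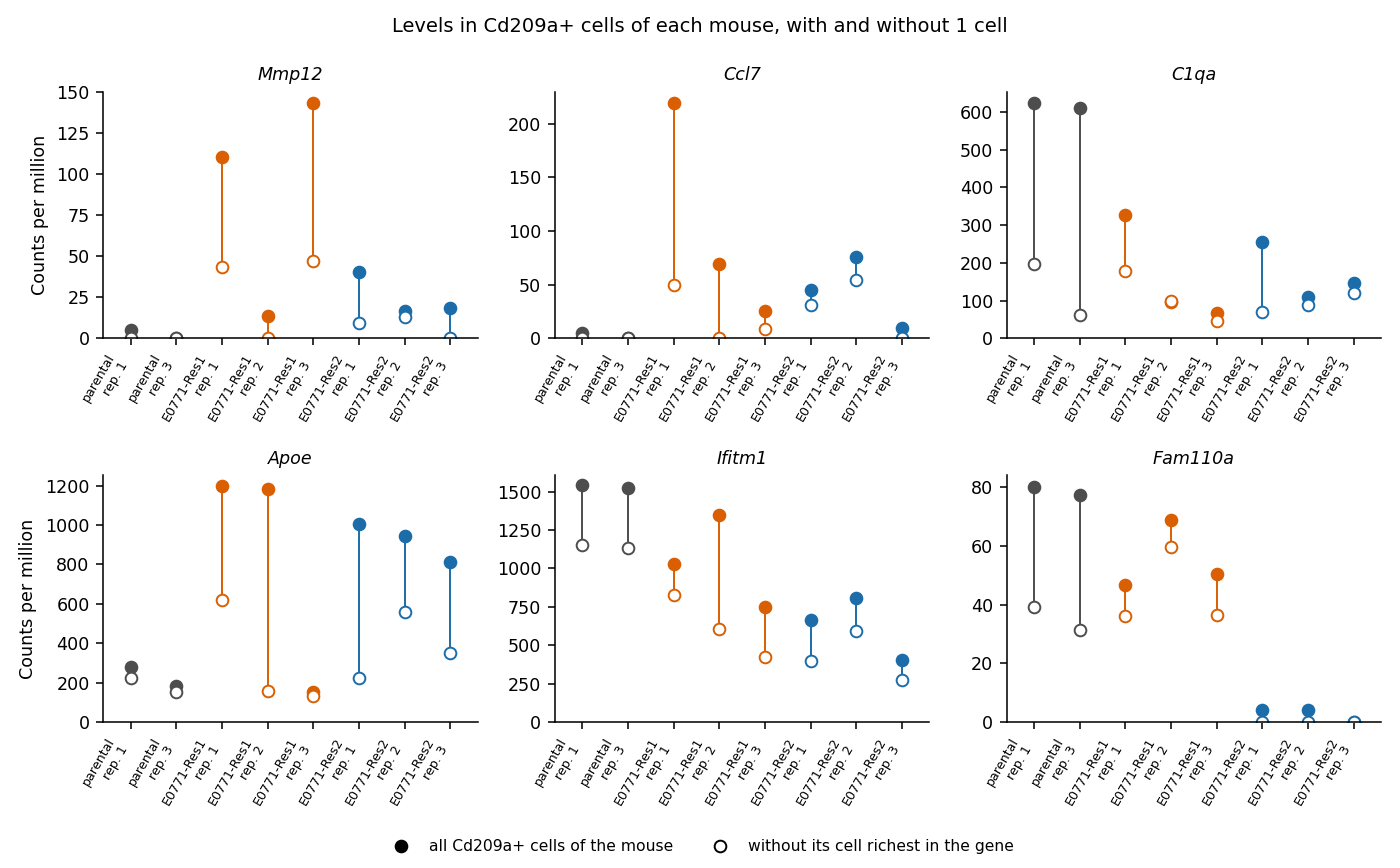
CPM of 6 genes in the Cd209a+ cells of each mouse, with all its members (filled) and without its member richest in that gene (open), on linear axes from 0. Most of the parental C1qa and of the Mmp12 in E0771-Res1 replicates 1 and 3 came from 1 cell per mouse, whereas the E0771-Res2 mice stayed lowest for Fam110a with the cell left out.

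The remaining genes had their smallest p in E0771-Res1 against parental tumors or between the resistant lines. Hmgcs1, an early enzyme of cholesterol synthesis, was at 176 and 223 CPM in parental, 66.4, 96.5 and 33.6 in E0771-Res1, with 191, 126 and 64.7 in E0771-Res2 (E0771-Res1 against parental -1.77 ± 0.42, edgeR adjusted p = 0.458). Trim30c, of an interferon-inducible family with close relatives whose reads it may share, was at 80.0 and 116 in parental and at 24.6, 13.8 and 8.41 in E0771-Res1, with E0771-Res2 between them at 65.1, 46.2 and 55.4 (adjusted p = 0.683). For both genes the 3 E0771-Res1 mice lay below the parental mice, including replicate 2, which was not in the fit.

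Between the resistant lines, Ifit2, an interferon-induced protein that binds viral RNA, was at 243, 220.5 and 219 CPM in E0771-Res1, with 493, 458 and 545 in E0771-Res2, with parental mice between them at 406 and 291. The 2 lines did not overlap (1.11 ± 0.24, edgeR adjusted p = 0.270). Syngr2, a vesicle protein of dendritic cells, was at 676, 620.1 and 757 in E0771-Res1 and at 391, 328 and 416 in E0771-Res2, with 779 and 543 in parental mice, again without overlap of the lines (-0.91 ± 0.22, adjusted p = 0.314). Ddt, a relative of the cytokine MIF, was at 263, 27.6 and 311 in E0771-Res1, with 65.1, 88.3 and 102 in E0771-Res2, and here replicate 2, outside the fit, was below all E0771-Res2 mice (-1.76 ± 0.41 without it, adjusted p = 0.270).

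No gene of MHC class II presentation or of the cDC2 markers passed the adjusted threshold in any of the 4 comparisons. Of 17 genes of MHC class II presentation, 12 passed the filter on low counts, and in resistant against parental tumors 0 were higher and 1 was lower at an unadjusted p under 0.05, where 2.18% and 2.74% of all 2842 genes were higher and lower. Their median log2 fold change was -0.03, against 0.00 over all genes. The gene that was lower was Ciita, at 160.1 and 155 CPM in parental, 90.9, 41.3 and 84.1 in E0771-Res1, with 44.8, 67.3 and 83.2 in E0771-Res2 (-1.05 ± 0.32, edgeR adjusted p = 0.643). Both parental mice were above all resistant mice for Ciita, whereas H2-Aa, H2-Eb1 and Cd74 are among the genes of the list that were not lower at that p. By lack of overlap between mice, 3 of the 12 were lower and 0 higher (5.77% and 5.56% of all genes). In E0771-Res2 against parental tumors 0 were higher and 2 lower at an unadjusted p under 0.05, where 2.99% and 2.39% of all genes were. Of 18 cDC2 markers, 12 were tested and 1 was higher, Mgl2 (1.69 ± 0.53, adjusted p = 0.643), with a median of 0.04. The groups overlapped for Mgl2, with 139 and 9.69 CPM in parental mice, 410.4, 41.3 and 278 in E0771-Res1, against 85.5, 336 and 213 in E0771-Res2. In E0771-Res2 replicate 3, 1 cell gave 21 of 23 Mgl2 UMIs, and in parental replicate 1, 1 cell gave 17 of 26. Clec10a (-0.01 ± 0.42), Kmo (-0.24 ± 0.32) and H2-DMb2 (0.51 ± 0.41) did not separate the tumors. Of 12 genes of conventional dendritic cell identity, 7 were tested and 0 reached an unadjusted p under 0.05, with a median of 0.47. In E0771-Res2 against parental tumors 1 of the 7 did, Id2, an inhibitor of E-protein transcription factors (1.12 ± 0.51, edgeR adjusted p = 0.918), where 2.99% of all genes were higher and 2.39% lower, with a median of 0.49. Flt3 and Zbtb46 were too low to be tested.

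Immediate early and heat shock genes, which cells can switch on during tissue dissociation, were mostly above parental levels in the resistant tumors, though none passed the adjusted threshold. Of 18 listed genes 17 were tested, and 8 were higher and 0 lower at an unadjusted p under 0.05 in resistant against parental tumors, where 2.18% and 2.74% of all genes were. Their median log2 fold change was 0.52. Of the 17, 13 had a log2 fold change above 0, where 50.1% of all genes did. In E0771-Res2 against parental tumors 9 were higher and 0 lower, where 2.99% and 2.39% of all genes were, and 15 were above 0, where 50.2% were. In E0771-Res1 4 were higher and 0 lower, where 1.86% and 2.15% of all genes were. Jun was at 731 and 804 CPM in parental, 1069, 344 and 597 in E0771-Res1, with 1144, 1765 and 1571 in E0771-Res2, so that the 3 E0771-Res2 mice lay above all others (1.01 ± 0.25, edgeR adjusted p = 0.228). Dusp1 was at 438 and 378 in parental, 718, 620.1 and 429 in E0771-Res1, with 745, 773 and 859 in E0771-Res2 (0.99 ± 0.24, adjusted p = 0.228). In the other kept cells the same list summed to 10520 and 10340 CPM in parental, 11074, 11558 and 11312 in E0771-Res1, with 10867, 12777 and 12787 in E0771-Res2, beside 9845 and 10562, 12280, 9935 and 12087, and 12496, 15767 and 15164 in Cd209a+ cells. The part of dissociation in the gene levels given above was not tested.

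Interferon-responsive genes were mostly higher in E0771-Res2 than in E0771-Res1, again with none past the adjusted threshold. Of 27 listed genes of the type I interferon response 25 were tested, and in E0771-Res2 against E0771-Res1 6 were higher and 0 lower at an unadjusted p under 0.05, where 2.64% and 2.01% of all genes were. Of the 25, 22 had a log2 fold change above 0, where 48.6% of all genes did, and their median was 0.30. Against parental tumors, 0 were higher and 2 lower in E0771-Res1 (1.86% and 2.15% of all genes), with 6 of 25 above 0 (51.4% of all genes) and a median of -0.26. In E0771-Res2, 2 were higher and 0 lower (2.99% and 2.39% of all genes), with 17 of 25 above 0 (50.2% of all genes) and a median of 0.19. In both resistant lines together 0 were higher and 2 lower (2.18% and 2.74% of all genes), with a median of -0.07. Besides Ifit2, Ifit3 was at 443 and 562 CPM in parental, 378, 138 and 395 in E0771-Res1, with 631, 723 and 832 in E0771-Res2, all above the other mice (0.93 ± 0.23 between the lines, edgeR adjusted p = 0.314). Rsad2 (viperin) was at 246, 730.3 and 227 in E0771-Res1, with 586, 315 and 1026 in E0771-Res2 (1.40 ± 0.37, adjusted p = 0.375), where replicate 2 of E0771-Res1, outside the fit, overlapped the other line. Cxcl10 was at 1233 and 1802 in parental, 1459.7, 896 and 1270.1 in E0771-Res1, with 2089, 2261 and 3003 in E0771-Res2, again with E0771-Res2 above all others (0.85 ± 0.22, adjusted p = 0.375), whereas in the other kept cells it was no higher in E0771-Res2 (1007, 1338 and 980.3) than in E0771-Res1 (1293, 1433 and 1593). The whole type I list averaged more in E0771-Res2 than in E0771-Res1 in some cells outside the gate as well. It was at 8378 and 7914 CPM in the other kept cells, 6807 and 6393 in C1q+ macrophages and 5095 and 4677.5 in T cells, beside 9307 and 7318 in Cd209a+ cells. In Ccr7+ dendritic cells the order was the other way, with 6832 in E0771-Res2 and 8191 in E0771-Res1.

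The counts of the remaining lists stand against the same 2.18% of all genes higher and 2.74% lower, and no gene of these lists passed the adjusted threshold. Of 12 chemokines tested, 3 were higher and 1 lower at an unadjusted p under 0.05 in resistant against parental tumors, Ccl7, Ccl12 and Ccl5 in the first direction and Ccl6 in the second. Ccl7, with 1 and 0 UMIs in the parental mice, met the low-count filter through resistant mice. Of 10 macrophage markers tested, 3 were lower (C1qa, C1qb and C1qc) and 1 higher (Apoe). The 3 lower genes all belong to C1q, and most parental UMIs of C1qa came from 1 cell per mouse. The share of single cells was not examined for C1qb and C1qc. Genes higher and lower were 1 and 2 of 20 transcription factors of dendritic cell development, and 0 and 2 of 12 interferon gamma response genes. They were 0 and 1 of 10 monocyte markers, of 6 chemokine receptors and of 18 MHC class I genes. They were 1 and 0 of 11 C-type lectins and of 13 genes of lipid handling and lysosome. Lists not named in this section had none. Of 21 cell cycle genes only 5 had enough counts, of which 2 were higher (Stmn1 and Birc5) and 0 lower. The parental mice held 3 and 0 UMIs of Stmn1 and 0 and 0 of Birc5. Both thus met the low-count filter through resistant mice, which fixed their direction, and no conclusion is drawn from it. For Birc5, 21 of 22 UMIs in E0771-Res1 replicate 1 and all 11 in E0771-Res2 replicate 3 came from 1 cell each. For Stmn1, 31 of 44 UMIs in E0771-Res1 replicate 1, 44 of 51 in E0771-Res2 replicate 1 and all 11 in E0771-Res2 replicate 3 did so. The summed level of the list in Cd209a+ cells was 309 and 107 CPM in parental, 705, 386 and 319.6 in E0771-Res1, with 904, 185 and 1063 in E0771-Res2. Of 10 T and NK cell markers 2 had enough counts, Gzma and Nkg7, and both were higher. The parental mice held 6 and 1 UMIs of Gzma and 2 and 2 of Nkg7. Both genes thus met the low-count filter through resistant mice, which fixed their direction, and no conclusion is drawn from it. Their list summed to 27.7 to 58.7 CPM in 5 mice and to 500.2 to 665 in E0771-Res1 replicate 3 and E0771-Res2 replicates 1 and 2. In these 3 mice 41 of 43, 84 of 87 and 81 of 84 Gzma UMIs came from 1 cell each. Those cells of E0771-Res2 replicates 1 and 2 had doublet scores in the top 5%, and that of E0771-Res1 replicate 3 did not.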

How the data were processed

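Per the file headers, the authors counted UMIs with Cell Ranger 6.1.2 (mm10 and Seurat are named in the submitters' processing notes). The deposited values are unnormalized UMI counts, 1 matrix a mouse, of 32285 genes and 9 tags, with 5036667 to 18894504 counts per mouse. Parental replicate 2 was not analysed here. The members, gene lists and tests were chosen with earlier results of these data known. Tags, mitochondrial, Rpl, Rps and Gm genes and the 6 gate genes stayed out of tests.

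Counts of members were summed per mouse (at least 10 cells) and fitted with edgeR 4.0.16 (TMM, filterByExpr, quasi-likelihood test, 3 group means) in R 4.3.3, with Benjamini-Hochberg adjustment over 2842 genes and calls at an adjusted p under 0.05. DESeq2 1.42.0 was an alternative. Genes are named where called, or among the 5 smallest p of a comparison with a log2 CPM of at least 5, and other genes named between tumors were taken from the lists after their values were seen. Some genes that these rules would name are not reported here. Shares were tested by exact permutation in Python 3.11.15, and doublets were scored with Scrublet in scanpy 1.11.5 but kept. The fit was tested on simulated data. Pairs of mice of 1 group differed by 2.03 to 2.84 times the sampling noise (chi-square per degree of freedom), and p-values measure the spread between these mice.

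Alternatives were the normalization, the low-count filter, the gate thresholds, thinning to 2500 UMIs, C1q-rich cells, high doublet scores and each mouse left out, as well as 3 added after seeing the data: including the mouse with 6 cells, leaving out the cell richest in Mmp12, and reading Mmp12 in other cells.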

Additional observations from a re-analysis of the deposited data

How the results depend on the processing

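The number of genes called at an adjusted p under 0.05 (0, 1, 0 and 0 in resistant against parental, E0771-Res1 against parental, E0771-Res2 against parental and E0771-Res2 against E0771-Res1) depended on single settings. Without a filter on low counts edgeR called 21, 18, 40 and 25. Leaving out 1 mouse gave 0 to 11, 0 to 10, 0 to 10 and 0 to 4, with 11, 10, 8 and 2 without E0771-Res1 replicate 1 and 5, 6, 10 and 4 without E0771-Res1 replicate 3, where that group is 1 mouse assumed to vary like the others. The Mmp12 call in E0771-Res1 was lost, with 0 genes called, with DESeq2, with Cd209a of at least 3 or at least 1 UMI, with H2-Ab1 of at least 20 UMIs, without C1q-rich cells, without the highest doublet scores, after thinning, with the mouse of 6 cells added, without the cell richest in Mmp12, without parental replicate 3 and without each E0771-Res2 replicate. Leaving out C1q-rich cells gave 1 gene in resistant and 1 in E0771-Res2 tumors against parental, and H2-Ab1 of at least 20 UMIs gave 2 in E0771-Res2. Same-numbered mice did not deviate together (r from -0.0523 to 0.0754), and a replicate block left the counts at 0, 1, 0 and 0, with Ccl7 called in place of Mmp12. Mmp12 itself was called in E0771-Res1 in 5 of its 19 alternatives, so its call was also lost in some settings that called other genes. The cause of these shifts was not tested.

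Of 405 values of named genes under alternatives, 3 reversed. C1qa turned to 0.091 (Cd209a of at least 3 UMIs) and 0.35 (without C1q-rich cells) in resistant and to 0.43 (without C1q-rich cells) in E0771-Res2 against parental tumors. The C1q-rich cells were chosen on C1q itself. These 2 settings and H2-Ab1 of at least 20 UMIs left 1 parental mouse.

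The difference between resistant and parental tumors was -0.496 to -0.272 percentage points of kept cells with 1 mouse left out. It was -0.747 to 0.365 of H2-Ab1-high cells, 11.1 to 63.3 Ccr7+ cells per 100, and 5.12 to 16.9 percentage points for Mki67 or Top2a. After thinning with the lowered gate the first 3 were -0.853, -1.37 and 68.8. With Cd209a of at least 1 UMI at full depth the share of kept cells differed by -0.705 (exact permutation p = 0.0714). The difference reversed to 0.566 of H2-Ab1-high cells with H2-Ab1 of at least 20 UMIs and to -4.96 for Mki67 or Top2a after thinning with the lowered gate.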
